A study of Homo sapiens with 8 samples.

Results

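Microexons are internal exons so short that only a few codons fit in them, and the splicing machinery has little exon sequence with which to define them. Many are included chiefly in neurons, where the SR-related proteins SRRM4 and SRRM3 promote their use, while the polypyrimidine tract binding protein PTBP1 represses neural exons in other cell types by binding pyrimidine-rich RNA near them. A microexon whose length is a multiple of 3 adds or removes whole codons, and one of another length shifts the reading frame. Here the microexons were the internal exons of 3 to 27 bases of annotated protein-coding transcripts, and 609 of them in 503 genes were kept because their position was spanned by at least 40 transcript counts summed over 8 libraries. The exon length and this sum, which ignores the groups, were the only values used to choose them. They made up 31.2% of the 1952 annotated microexons and 0.755% of the 80615 internal exons that met the same minimum in 7784 genes.

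MOLM-13 cells, a human acute myeloid leukemia line, had been transduced with a lentivirus in which doxycycline (dox) switches on an shRNA and the surface marker ΔLNGFR, while mCherry is made at all times. RNA was taken after 9 days of dox from 4 biological replicates with an shRNA against PTBP1 (shPTBP1) and 4 with a scrambled shRNA (shSCR), and full-length cDNA was read by nanopore sequencing. The comparison asks how the use of microexons differed after PTBP1 knockdown (KD). Both groups received dox, and with a single shRNA against PTBP1, other effects of that shRNA cannot be told apart from those of the KD.

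The library totals were 1569466 to 1609627 transcript counts after shPTBP1 and 1528449 to 1613342 after shSCR. PTBP1 itself had 10, 15, 13 and 23 counts after shPTBP1 and 65, 90, 64 and 78 after shSCR, a fall of the groups' levels without overlap (log2 fold change -2.26, SE 0.22, adjusted p = 7.18e-05, edgeR). All 9 myeloid markers were detected, although SPI1 had only 1 count in all, and their summed counts were 1039 to 1217 after shPTBP1 and 930 to 1002 after shSCR. Of 6 neural markers, 4 were at 0 in every library, and the summed counts of 14 to 24 and 4 to 19 came almost wholly from SNAP25. SRRM4 and SRRM3, the activators of neural microexons, had 0 counts in all 8 libraries.

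For each microexon, inclusion is the percentage of spanning counts that came from transcripts containing it, where the other spanning transcripts join the exons on either side. The counts are those of whole annotated transcripts, so 2 exons that are decided by the same transcripts carry the same evidence. Fewer cells with 1 form and less of that form per cell cannot be told apart in bulk RNA.

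The sequences of the exons on which the comparison turned are given first, because the pyrimidine-rich stretch upstream of an exon is the kind of RNA that PTBP1 is known to bind. Each is printed 5′ to 3′ on the strand of its gene from hg38, with 60 bases upstream in lower case, the exon in capitals and 12 bases downstream in lower case. The first 4 changed past the threshold, the RPS24 pair differing only in the start of the exon. The GLE1 exon was close to the threshold, the PHF21A and 9-base ROBO1 exons had groups that did not overlap, and the MEF2C exon is a deeply counted comparator whose inclusion was close in both groups.
RPS24, 22-base exon: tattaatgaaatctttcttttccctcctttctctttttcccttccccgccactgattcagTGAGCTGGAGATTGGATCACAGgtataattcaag
RPS24, 25-base exon: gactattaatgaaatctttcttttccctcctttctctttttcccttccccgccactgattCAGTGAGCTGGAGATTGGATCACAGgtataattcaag
PDLIM7, 17-base exon: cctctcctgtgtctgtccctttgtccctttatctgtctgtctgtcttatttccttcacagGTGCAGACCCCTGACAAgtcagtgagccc
PICALM, 24-base exon: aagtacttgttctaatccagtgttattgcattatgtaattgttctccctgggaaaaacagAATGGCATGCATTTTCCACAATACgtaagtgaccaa
GLE1, 27-base exon: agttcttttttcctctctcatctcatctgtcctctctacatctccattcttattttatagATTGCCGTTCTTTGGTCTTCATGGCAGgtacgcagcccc
PHF21A, 23-base exon: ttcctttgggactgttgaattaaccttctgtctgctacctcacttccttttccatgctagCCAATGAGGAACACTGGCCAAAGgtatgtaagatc
ROBO1, 9-base exon: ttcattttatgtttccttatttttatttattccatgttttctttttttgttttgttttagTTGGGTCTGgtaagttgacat
MEF2C, 24-base exon: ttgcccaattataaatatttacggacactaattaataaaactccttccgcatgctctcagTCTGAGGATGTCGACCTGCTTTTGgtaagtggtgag
The RPS24 exons lie at chr10:78040204-78040225 and chr10:78040201-78040225 on the plus strand, and the GLE1 exon at chr9:128532665-128532691 on the plus strand. On the minus strand lie the exons of PDLIM7 at chr5:177491404-177491420, PICALM at chr11:85978070-85978093, PHF21A at chr11:45946076-45946098, ROBO1 at chr3:78693348-78693356 and MEF2C at chr5:88730211-88730234. All but the RPS24 exons are coding in their whole length.

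The strongest evidence was for the 22-base exon of RPS24, which encodes a protein of the small ribosomal subunit. Its inclusion was 20.7%, 22.7%, 21.5% and 20.5% in the 4 shPTBP1 libraries and 8.18%, 8.84%, 8.35% and 8.34% in the 4 shSCR libraries. Every shPTBP1 library lay above every shSCR library, and the gap between the groups was far wider than the spread inside either. The means were 21.4% ± 0.966 and 8.43% ± 0.287 (SD, n = 4 each), a difference of 12.9 percentage points and a change of 1.56 in the log2 odds of inclusion (SE 0.14, adjusted p = 1.48e-05, edgeR). The exact two-sided permutation test gave p = 0.0286, the smallest that 4 against 4 libraries allow. The position was spanned by 48987 counts, and 100% of them came from transcripts that were alike but for this exon.

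The exon carries the stop codon of RPS24-202, the transcript with nearly all of its inclusion counts, whereas in the rare RPS24-216 the reading frame ends upstream of it. The first 3 bases of the exon, printed as TGA above, are the annotated stop codon of RPS24-202 at chr10:78040204-78040206, whereas RPS24-214, which skips the exon, is annotated to stop at chr10:78040624-78040626. RPS24-202 had 1158, 1428, 1303 and 1239 counts after shPTBP1 and 518, 504, 513 and 562 after shSCR. RPS24-214 had 4441, 4888, 4759 and 4807 counts after shPTBP1 and 5814, 5196, 5644 and 6197 after shSCR, so the skipping form was lower in each shPTBP1 library. The summed level of the gene was 4030 CPM (counts scaled to the library total) after shPTBP1 and 4110 after shSCR, which did not pass the test (log2 fold change -0.03, adjusted p = 0.854, edgeR). RPS24 has processed pseudogenes, and reads shared with them could not be separated here.

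A second annotated start of the same exon lies 3 bases upstream and gives the 25-base exon of RPS24-203. Its inclusion was 1.00%, 0.892%, 0.73% and 0.866% after shPTBP1 and 0.394%, 0.403%, 0.247% and 0.338% after shSCR. The groups did not overlap, at means of 0.873% ± 0.112 and 0.345% ± 0.0714 (SD, n = 4 each; log2 odds change 1.34, SE 0.21, adjusted p = 0.00214, edgeR). The call was lost with limma on the log odds (adjusted p = 0.135) and under a minimum change of 10 percentage points, the difference being 0.527. Unlike the 22-base exon, it is preceded by TT and not AG, as its printed sequence shows. Among the counts of RPS24-202 and RPS24-203 together, the longer form held 2.62% to 3.74% after shPTBP1 and 2.66% to 4.25% after shSCR, so both starts were higher after shPTBP1 while the share of the longer one overlapped between the groups (means 3.16% and 3.63%, exact permutation p = 0.343). Another RPS24 microexon, of 18 bases, was included in at most 0.0657% of counts in any library. Its means were 0.0533% ± 0.0139 and 0.0114% ± 0.0143 (SD, n = 4 each), 2 of the shSCR libraries were at 0, and it did not pass the test (adjusted p = 0.159, edgeR).

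PDLIM7 encodes a cytoskeletal adaptor with a PDZ domain and LIM domains. Its 17-base exon was included in 20.6%, 23.1%, 19.4% and 20% of spanning counts after shPTBP1 and in 3.38%, 6.56%, 7.80% and 4.88% after shSCR. Every shPTBP1 library was above every shSCR library, with means of 20.8% ± 1.61 and 5.65% ± 1.93 (SD, n = 4 each). The difference was 15.1 percentage points and the log2 odds of inclusion rose by 2.11 (SE 0.27, adjusted p = 0.000523, edgeR). The only transcript with this exon, PDLIM7-203, had 27, 24, 26 and 26 counts after shPTBP1 and 5, 12, 11 and 8 after shSCR. It also lacks a 119-base exon at chr5:177491807-177491925, whose inclusion therefore moved by the same amount in the opposite direction, and these counts cannot say which of the 2 exons was measured.

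The denominator for PDLIM7 holds 2 other transcripts, which moved in different directions. PDLIM7-202 had 51, 52, 59 and 49 counts after shPTBP1 and 133, 155, 126 and 144 after shSCR, while the shorter PDLIM7-201 had 53, 28, 49 and 55 and then 10, 16, 4 and 12. Against PDLIM7-202 alone, a comparison chosen after the data were seen, PDLIM7-203 held 34.6%, 31.6%, 30.6% and 34.7% after shPTBP1 and 3.62%, 7.19%, 8.03% and 5.26% after shSCR. The groups were thus further apart in this pair, at 32.9% ± 2.09 and 6.03% ± 1.98 (SD, n = 4 each, exact permutation p = 0.0286). The level of the whole gene was 81.4 CPM and 103 CPM, which did not pass the test (log2 fold change -0.33, adjusted p = 0.0881, edgeR).

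PICALM, a clathrin assembly adaptor of endocytosis, held the called microexon that fell. Its 24-base exon was included in 33.7%, 32.5%, 35.1% and 22.2% of spanning counts after shPTBP1 and in 75%, 65.0%, 62.7% and 66.3% after shSCR. All shPTBP1 libraries were below all shSCR libraries, and the lowest of them was replicate 4. The means were 30.9% ± 5.88 and 67.2% ± 5.38 (SD, n = 4 each), a difference of -36.3 percentage points (log2 odds change -2.21, SE 0.31, adjusted p = 0.00102, edgeR). PICALM-219, the transcript with the microexon, had 29, 26, 26 and 20 counts after shPTBP1 and 60, 52, 42 and 57 after shSCR, and PICALM-204, which skips it, had 48, 47, 39 and 54 and then 14, 23, 19 and 25.

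These PICALM transcripts differ in another exon as well. PICALM-204 holds a 129-base exon at chr11:85990250-85990378 that PICALM-219 lacks, and the inclusion of that exon rose by 37.1 percentage points (adjusted p = 0.00102, edgeR). A form of it that is 150 bases long, in PICALM-202, rose by 19.5 percentage points (adjusted p = 0.0294, edgeR). The fall of the microexon and the rise of the longer exon rest on the same transcript counts, and which of them the reads covered was not tested. The gene level was 53.4 CPM after shPTBP1 and 50 CPM after shSCR (log2 fold change 0.09, adjusted p = 0.704, edgeR).

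GLE1, a factor in the export of mRNA from the nucleus, was singled out after its values were seen, since its 27-base exon crossed the threshold under several of the alternatives. The transcript with the exon had 4 of 144, 7 of 141, 7 of 150 and 9 of 128 spanning counts after shPTBP1 and 1 of 165, 1 of 130, 3 of 132 and 0 of 150 after shSCR. Inclusion was thus low throughout, yet its lowest shPTBP1 library, at 2.78%, was above its highest shSCR library, at 2.27%. The means were 4.86% ± 1.74 and 0.912% ± 0.966 (SD, n = 4 each), with a log2 odds change of 2.42 (SE 0.60, adjusted p = 0.062, edgeR). Transcripts that differ in nothing else held 97.9% of these counts, and on those pairs alone the adjusted p was 0.0209. Over all the alternatives the adjusted p was 0.0189 to 0.225, and it passed the threshold in 5 of 19.

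**Figure D1:**
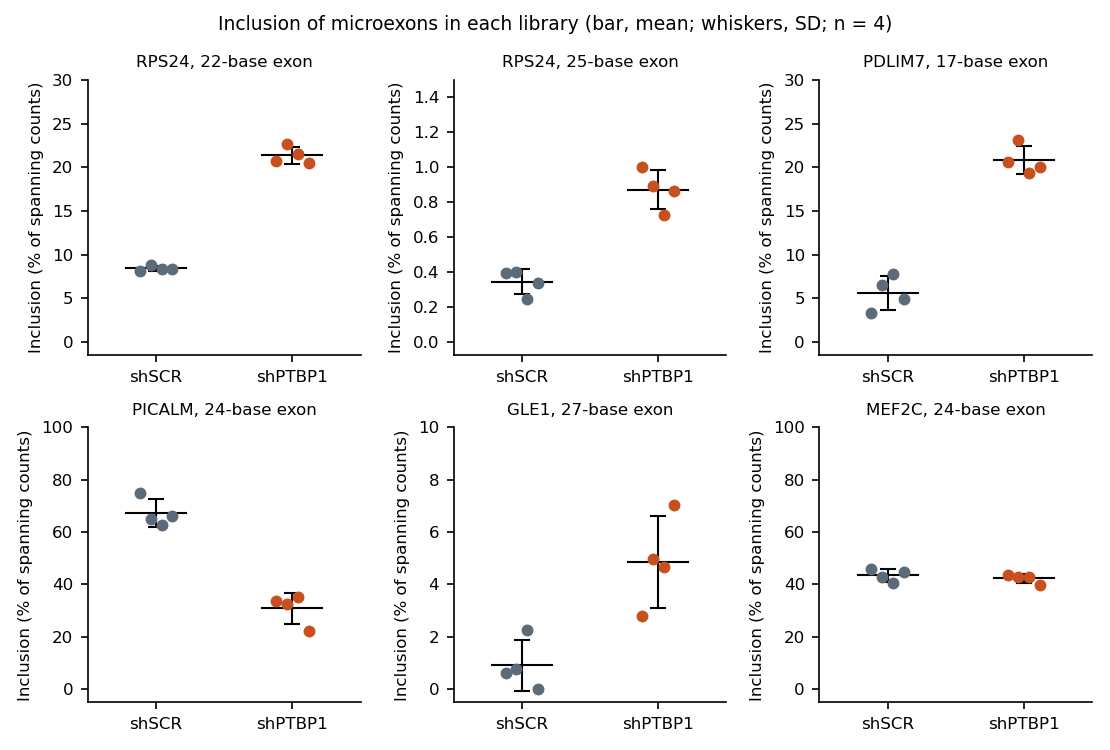
Inclusion (percent of spanning counts, y axis, with a different scale in each panel) of 6 microexons in each of the 4 shSCR and 4 shPTBP1 libraries. Points are libraries, horizontal bars are means and whiskers are SDs. The groups are apart for both RPS24 exons, PDLIM7, PICALM and GLE1, of which GLE1 did not pass the test, and they overlap for MEF2C.

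Across the microexons, 122 in 112 genes could be tested because each form had at least 10 counts over the 8 libraries. Of these, 4 were called at an adjusted p under 0.05, 3 higher and 1 lower after shPTBP1, which is 3.28% beside 1.71% of the 3678 internal exons of all lengths tested in the same fit (0.952% higher and 0.761% lower). With calls this few, and 2 of the 4 being alternative starts of the same RPS24 exon, the shares are given as a description. At an unadjusted p under 0.05 there were 16 microexons, or 13.1%, beside 11.6% of all internal exons. The groups did not overlap for 11 microexons, or 9.02%, which is close to the 8.54% of all internal exons. By direction, 8 of the 11 were higher and 3 lower, where the background was 4.65% of all internal exons tested higher and 3.89% lower. The higher ones include the 18-, 22- and 25-base exons of RPS24. ROBO1 is counted in both directions, through 2 exons with mirrored counts of the same transcripts. A count of 0 in a whole group occurred for none of the 122, and 8 had passed the filter mainly through the counts of 1 group. For the microexons of DTNB and RFFL, a library without a spanning count was left out of the mean.

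The median difference of inclusion was 0.645 percentage points over the microexons tested and -0.0169 over all internal exons tested. Inclusion was higher after shPTBP1 for 76 microexons, or 62.3%, compared with 57.3% of the 375 exons of 28 to 51 bases and 48.0% of the 3180 exons of 52 bases and over. The corresponding shares called were 1.87% and 1.64%. None of the 29 microexons of 3 to 15 bases that were tested was called, and all 4 calls were among the 93 of 16 to 27 bases. The spread between libraries was wider for microexons, with a median SD of 4.26 percentage points after shSCR and 5.12 after shPTBP1, beside 3.66 and 3.70 for all internal exons. These sets also differed in median inclusion after shSCR (38.0% and 69.4%) and in median spanning counts (389 and 442). The part of these differences in the spread was not tested. Counts were also simulated over internal exons of all lengths, with the same setting of spread between libraries for each. With a log2 odds change of 2, the test found 46% of the changed exons, and 88.6% of those whose rarer form had at least 50 counts. A change of that size in a thinly counted exon could thus be missed at this depth, and microexons were not simulated apart.

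**Figure D2:**
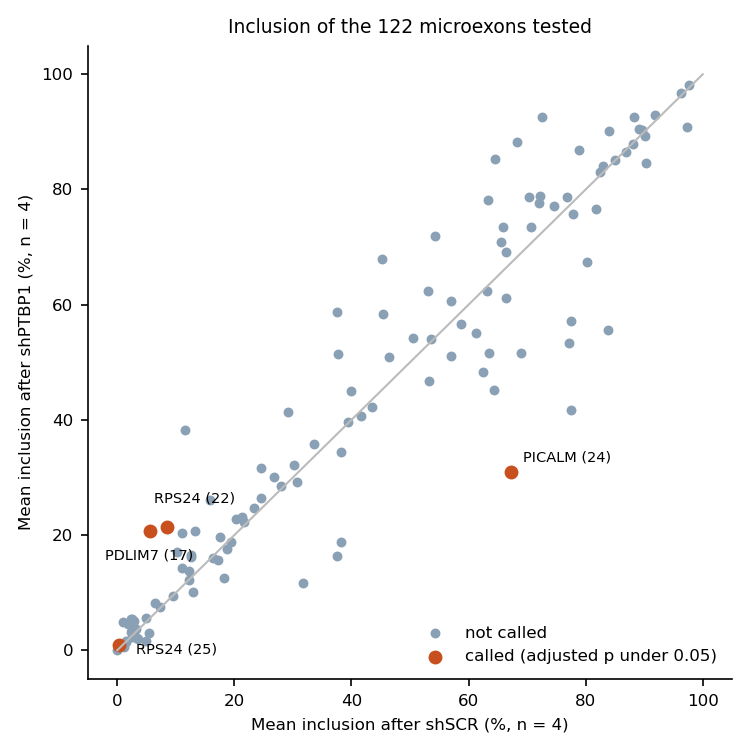
Mean inclusion of each of the 122 microexons tested after shSCR (x axis, percent) and after shPTBP1 (y axis, percent), with n = 4 libraries per mean and the line of equal inclusion in grey. The 4 called microexons are named with their length in bases, and PICALM is the called microexon below the line.

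Some uncalled microexons also had groups that did not overlap, and 5 of them with the largest differences are described here. PHF21A encodes a component of the histone demethylase complex built on LSD1, and inclusion of its 23-base exon was 50%, 65.2%, 62.5% and 57.1% after shPTBP1 and 45.5%, 25%, 38.9% and 40.9% after shSCR. The libraries were apart, but they rested on 143 spanning counts in all, and the difference of 21.2 percentage points did not pass the test (adjusted p = 0.376, edgeR). Another tested exon of PHF21A is decided by the same transcripts, so these counts cannot say which of them was measured. ROBO1, a receptor for the guidance protein Slit, had a 27-base exon at 96.6%, 81.8%, 90.9% and 84.0% after shPTBP1 and 71.1%, 68.8%, 65.2% and 68.2% after shSCR (adjusted p = 0.137, edgeR). Its 9-base exon mirrored this at 3.45%, 18.2%, 9.09% and 16% and then 28.9%, 31.2%, 34.8% and 31.8%, since the same transcripts decide both. The 23-base exon of C18orf21 was at 62.5% ± 3.27 and 53.2% ± 0.641 (adjusted p = 0.535, edgeR). The 25-base exon of ZBTB8OS, a cofactor of tRNA ligation, was at 90.9% ± 3.64 and 97.4% ± 1.99 (SD, n = 4 each, adjusted p = 0.249, edgeR). For all 5, transcripts alike but for the exon held none of the spanning counts. The microexon and other differences of the transcripts therefore cannot be told apart.

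The most deeply counted microexons outside RPS24 gave values that were close in the 2 groups. EPRS1 encodes a tRNA synthetase, and its 21-base exon was included in 22.2%, 21.9%, 26.2% and 22.1% after shPTBP1 and 21.7%, 21.9%, 19.7% and 22% after shSCR. The only transcript with this exon, EPRS1-206, has 21 exons and no annotated stop codon, whereas EPRS1-201, which skips it, has 32 exons. These counts therefore cannot say whether the microexon or another difference of the 2 transcripts was measured. Apart from replicate 3, which was the highest in its group after shPTBP1 and the lowest after shSCR, the libraries lay within a narrow band, and the difference of 1.79 percentage points did not pass the test (adjusted p = 0.803, edgeR). CYBA, a subunit of the phagocyte NADPH oxidase, included its 27-base exon in 0.887% ± 0.335 and 0.636% ± 0.134 (SD, n = 4 each) of spanning counts (adjusted p = 0.654, edgeR). ACTR2, of the actin-nucleating Arp2/3 complex, included its 15-base exon in 2.24% ± 0.546 and 2.47% ± 0.532 (SD, n = 4 each; adjusted p = 0.907, edgeR).

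A list of 35 genes known for neural microexons was examined as a group, and 18 of them had 36 microexons that met the minimum. None of the 16 that could be tested was called, beside the background of 1.71%. Their median difference was 2.1 percentage points, beside 0.645 over all microexons tested and -0.0169 over all internal exons tested. Mean inclusion was higher after shPTBP1 for 12 of the 16, beside 62.3% of all microexons tested and 49.4% of all internal exons tested. These 12 include 3 DCTN1 exons held largely by the same transcripts, and SYNJ1, whose fitted log2 odds change was negative (-0.86). PHF21A was the only one of the 16 whose groups did not overlap, beside 8.54% of all internal exons tested. Transcripts alike but for the exon held none of the spanning counts of the tested exons of DCTN1, MAP4K4, MEF2D, PHF21A and SYNJ1. Their share was 10.3% and 23.5% for the 24- and 27-base CLASP1 exons. Where such transcripts held few or no counts, the microexon and other differences of the transcripts cannot be told apart. Of the 36, 7 had no inclusion count and 3 had no skipping count. The list therefore held microexons at every level of use in this line, described below by the role of the gene.

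Among transcription factors, MEF2C was counted most. Its 24-base exon was included in 43.7%, 42.9%, 42.9% and 39.7% after shPTBP1 and in 46.0%, 42.9%, 40.5% and 44.7% after shSCR, on 2859 spanning counts. The groups overlapped almost entirely, with means of 42.3% ± 1.76 and 43.5% ± 2.40 (SD, n = 4 each; adjusted p = 0.905, edgeR). Transcripts alike but for this exon held only 6.33% of its spanning counts. Over all the alternatives its log2 odds change was -0.84 to -0.02, and none called it. The 27-base exon of MEF2C had 0 of 2885 counts. MEF2D included its 21-base exon in 1.98% ± 1.49 and 3.61% ± 1.70 (SD, n = 4 each; adjusted p = 0.75, edgeR). MEF2A had only 105 spanning counts and its 24-base exon ranged from 0% to 100% within the shPTBP1 group, so its value there could not be resolved.

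Genes of the cytoskeleton and of membrane traffic made up much of the list. CLASP1 and CLASP2 bind the growing ends of microtubules. In CLASP1, the 24-base exon was at 67.5% ± 8.93 after shPTBP1 and 80.3% ± 5.15 after shSCR, and the 27-base exon was at 20.3% ± 8.31 and 11.1% ± 3.03 (SD, n = 4 each; adjusted p = 0.301 and 0.422, edgeR). In CLASP2, 2 microexons were in all 644 spanning counts and 3 were in none. DCTN1, the large subunit of dynactin, had 3 microexons of 18 or 21 bases, which are held largely by the same transcripts, with means of 4.65% to 5.47% after shPTBP1 and 2.36% to 2.55% after shSCR (adjusted p = 0.418 to 0.553, edgeR). AP2M1, the medium subunit of the clathrin adaptor AP-2, used a 6-base exon in 0.902% ± 0.350 and 0.816% ± 0.248 of counts, and ABI1, of the actin-regulating WAVE complex, used a 15-base exon in 69.1% ± 7.09 and 66.3% ± 14 (SD, n = 4 each; adjusted p = 0.954 and 0.978, edgeR). SYNJ1, a phosphoinositide phosphatase of synaptic vesicles, had 59 spanning counts for its 24-base exon, and its libraries ranged from 0% to 100%.

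The remaining genes of the list act in translation and signalling. CPEB4, which binds the ends of mRNAs and controls their polyadenylation, included a 24-base exon in 54.1% ± 10.5 after shPTBP1 and 53.6% ± 5.33 after shSCR, and EIF4G1, the scaffold of cap-dependent translation initiation, a 21-base exon in 8.26% ± 4.63 and 6.46% ± 1.29 (SD, n = 4 each; adjusted p = 0.996 and 0.861, edgeR). The kinase MAP4K4 included a 9-base exon in 61.8%, 61.8%, 44.7% and 37.5% of counts after shPTBP1 and in 35.7%, 37.1%, 41.4% and 36.7% after shSCR (adjusted p = 0.477, edgeR). All 4 shSCR libraries lay close together, while the shPTBP1 libraries spread from within that range to well above it. The receptor phosphatase PTPRF had 85 spanning counts, and its 27-base exon was at 12.5% ± 14.6 and 18.3% ± 4.41 (SD, n = 4 each; adjusted p = 0.875, edgeR).

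Summed over all 8 libraries, microexons fell into the fully included and the nearly unused more evenly than longer exons. Inclusion was at least 95% for 288 of the 609, or 47.3%, and under 5% for 212, or 34.8%, whereas the same shares over all internal exons were 90.9% and 5.36%. The 109 others, or 17.9%, lay between, compared with 3.74% of all internal exons. No inclusion count was seen for 118 microexons and no skipping count for 256, and for 228 of the latter no skipping transcript was annotated. Of the 235 with both forms, 113 fell short of the minimum for a test. The median microexon was spanned by 225 counts, with quartiles of 96 and 712.

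Length and counted inclusion moved together. The 19 microexons of 3 bases had a median inclusion of 0% and those of 4 to 9 bases of 0.987%, rising to 7.41% at 10 to 15 bases and 62.4% at 16 to 21 bases. At 22 to 26 bases and at 27 bases the median was 100%. A read can be placed on an exon of a few bases only if the aligner finds its 2 splice sites, and the part of alignment in this order was not tested. A length divisible by 3 was found for 386 microexons, or 63.4%, and for 39.2% of all internal exons. These 386 had a median inclusion of 22.2% and 34.5% were included in at least 95%, while the 223 of other lengths had a median of 100% and 69.5% were included in at least 95%. For the 228 microexons with no annotated skipping transcript, inclusion could only be counted as 100%. The part of the annotation in these medians and shares was not tested. Among those tested, 99 of 122 microexons, or 81.1%, had a length divisible by 3, beside 53.6% of all internal exons tested. Of the 4 called microexons, 3 (both RPS24 exons and PDLIM7) did not. Length alone does not settle the reading frame of these transcripts. PDLIM7-203 also lacks the 119-base exon and has the same annotated stop codon as PDLIM7-202, and the RPS24 exons carry an annotated stop codon themselves.

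**Figure D3:**
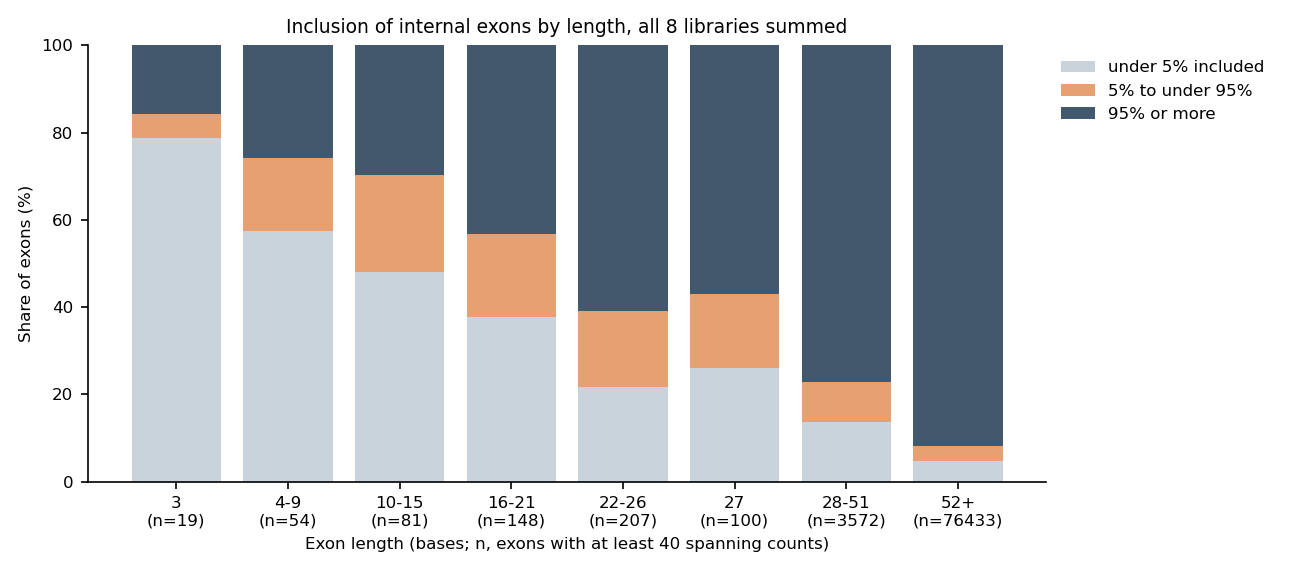
Share of internal exons (y axis, percent) included in under 5%, in 5% to under 95% and in at least 95% of spanning counts, by exon length in bases (x axis, with the number of exons), over all 8 libraries summed. The share under 5% is 78.9% for 3-base exons, 21.7% at 22 to 26 bases and 4.74% for exons of 52 bases and over.

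The most deeply counted microexons with only 1 form belong to widely expressed genes. HNRNPK, an RNA-binding protein, had a 16-base exon in all 11143 spanning counts, and PTGES3, a co-chaperone, a 25-base exon in all 9087. The histone chaperone NAP1L1 had a 20-base exon in all 7864, UQCRH of respiratory complex III a 27-base exon in all 7688, and HPRT1 of purine salvage an 18-base exon in all 5219. None of these has an annotated transcript that skips the exon, so skipping could not be counted. At the other end, the 3-base exon of RPS24 had 0 of 49232 counts, which allows an inclusion of up to 0.00609%. The 9-base exon of PSAP, the precursor of the saposins of the lysosome, had 0 of 11948 counts, which allows up to 0.0251%. A 14-base exon of the tRNA synthetase WARS1 had 0 of 11895 counts and a 26-base exon of MDM2, the ubiquitin ligase for p53, 0 of 5084, which allow up to 0.0252% and 0.059%. These microexons were chosen by their counts after these were seen, and the limits cover counting error only.

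At the threshold of 40 spanning counts, the microexons just inside were those of CAPN2 with 40, PITPNA with 41 and ATP13A3 with 42. Just outside were those of CMYA5, GIT1 and MFSD6, with 39 each.

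The intron upstream of microexons was richer in pyrimidines than that of longer exons. In the 100 bases before the exon, C or T made up 59.6% of bases on average for the 609 microexons, 62.3% for the 122 tested, and 55.4% for all internal exons. No such mean was taken over the internal exons tested. The excess lay away from the splice site. From 50 to 21 bases upstream the mean was 62.5% for microexons and 55.0% for exons of 52 bases and over, while in the last 20 bases both were 68.1%. The window of 100 bases ran past the intron for 24 microexons. Of the exons printed above, that of PDLIM7 had 80% pyrimidines in this window, both RPS24 exons 64%, and the PICALM exon, which fell, 56%. The uncalled ones had 62% (GLE1), 70% (PHF21A), 70% (9-base ROBO1 exon, lower after shPTBP1) and 56% (MEF2C). A link of this share with the direction of change was not tested.

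**Figure D4:**
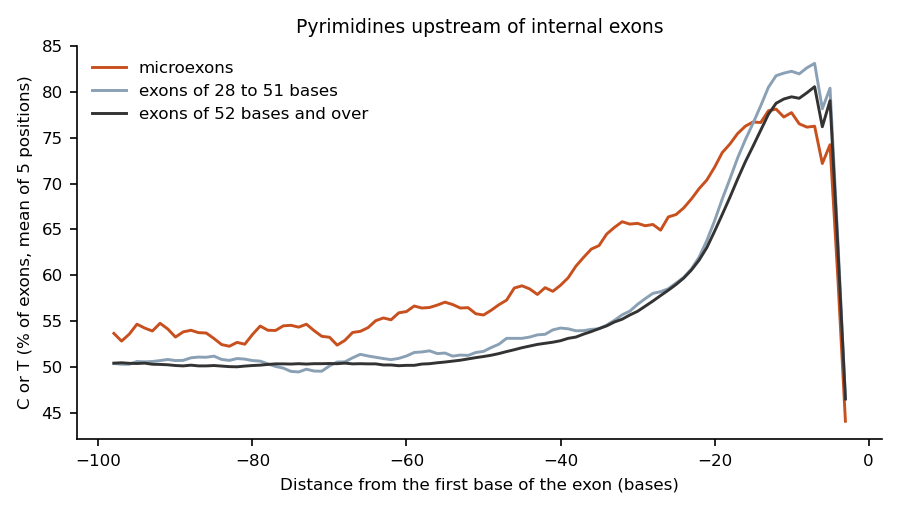
Percentage of exons with C or T (y axis, mean of 5 neighbouring positions) at each distance upstream of the first base of the exon (x axis, bases) for microexons, exons of 28 to 51 bases and exons of 52 bases and over. The microexon line lies above the others from 100 to about 15 bases upstream, and below them next to the exon.

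Short pyrimidine motifs of the kind PTBP1 is known to bind were searched in the same 100 bases on the strand of the gene only, and overlapping matches of the motifs were allowed. TCTT was present upstream of 79.3% of microexons, 83.6% of those tested and 64.8% of all internal exons, and CTCTCT upstream of 11.7%, 18.0% and 7.67%. These shares follow base composition as well as motifs. No share was taken over the internal exons tested, so the tested microexons have no like set beside them. The 22-base RPS24 exon and the PDLIM7 exon had 3 matches of TCTT each and none of CTCTCT, and the PICALM exon had 0 and 1. TGC, the core of the element through which SRRM4 is known to act, was present in the last 20 bases before 37.3% of microexons and 29.7% of all internal exons. It was present before 47.6% of the 212 microexons included in under 5% and before 27.4% of the 288 included in at least 95%. These sets also differed in base composition, with 62.5% and 72.0% pyrimidines in the same 20 bases. The part of base composition in the shares with TGC was not tested. A match describes the letters in the window and does not show binding.

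The regulators of microexons were given by a list of 25 splicing factors, of which 15 had enough counts for a test and 2 were called, beside a background of 5.54% of 7597 genes. PTBP1 fell, as given above, and its neural paralog PTBP2 rose from 1, 2, 2 and 4 counts after shSCR to 194, 199, 190 and 185 after shPTBP1 (log2 fold change 6.36, SE 0.19, adjusted p = 2.14e-10, edgeR). No library of either group came near the other. PTBP3, a further paralog, was at 48.3 ± 6.63 CPM and 37.0 ± 3.25 CPM (SD, n = 4 each; adjusted p = 0.118, edgeR). QKI, which binds RNA and regulates exon use, had 26, 597, 24 and 584 counts after shPTBP1 and 721, 719, 600 and 540 after shSCR, so that shPTBP1 replicates 1 and 3 stood apart from the other 6 libraries (adjusted p = 0.402, edgeR). Inclusion of the 22-base RPS24 exon in shPTBP1 replicates 1 and 3 lay between that in replicates 2 and 4, while for PICALM they were the 2 highest of their group. Each of the 4 called microexons was also called when any single library was left out. SRRM4, SRRM3, RBFOX1, RBFOX3, NOVA1, NOVA2 and U2AF1 were listed at 0 in every library, the last of these being a gene with a near-identical copy in the genome build.

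The genes that hold the microexons were tested for their overall level. Of 434 host genes with enough counts, 21 were called, or 4.84% beside the 5.54% of all genes, with 7 higher and 14 lower after shPTBP1, beside 2.36% and 3.19% of all genes, and a median log2 fold change of -0.03. The count was 13 with DESeq2, 14 with the replicate block and 8 to 14 when any single library was left out, so many of these calls were lost under another setting. The genes higher after shPTBP1 were ARHGEF6, ARIH2, HACD2, LST1, PTK2B, VAV3 and VPS29. PTK2B, a focal adhesion kinase of blood cells, was at 79.9 ± 5.67 CPM and 51 ± 5.81 CPM (SD, n = 4 each; log2 fold change 0.65, SE 0.11, adjusted p = 0.00416, edgeR). The genes lower were AP2M1, BAK1, CACNA2D4, CAPN1, CCDC28A, CHMP1A, DCTN1, HLA-DRB1, HOOK3, NCOR1, PGLS, STAT2, SUDS3 and UCKL1. AP2M1 was at 342 ± 23.7 CPM and 417 ± 26.9 CPM (log2 fold change -0.29, SE 0.07, adjusted p = 0.0312, edgeR), and DCTN1 at 62.6 ± 8.51 CPM and 86.3 ± 8.89 CPM (SD, n = 4 each; log2 fold change -0.46, SE 0.12, adjusted p = 0.034, edgeR). None of the host genes of the called microexons was among the 21, and none of the tested microexons in those 21 genes was called.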

How the data were processed

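Long-read nanopore cDNA libraries of MOLM-13 cells were compared, 4 with shPTBP1 and 4 with shSCR, labelled as biological replicates. The authors used minimap2 to place the reads on hg38, kept alignments of high mapping quality and deposited raw counts per annotated transcript from StringTie. The versions and the annotation are not given in the sources used here. A second deposited table, scaled to the library total, was not used. Groups and replicate numbers came from the labels, and every column had its sample.

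Exons, reading frames and genes came from GENCODE version 44, which held 252562 of the 254070 transcripts, and sequences from hg38. Read placement on exons of a few bases depends on the aligner, and a transcript count rests on the whole transcript. Libraries of a group differed in variance by 2.12 to 3.94 times what counting error gives, so none was a copy of another.

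Inclusion was counted over protein-coding transcripts, leaving out those with an overlapping, different exon. edgeR 4.0.16 in R 4.3.3 tested inclusion and skipping counts by quasi-likelihood with terms for library, form and form by group, over all 3678 internal exons with at least 40 spanning counts and 10 counts of each form. Benjamini-Hochberg adjusted p-values under 0.05 were called. The SE of a log2 odds change was its size divided by the square root of F. Gene counts were tested by group after TMM and filterByExpr. Single exons were also compared by exact two-sided permutation of 4 against 4 libraries. The test was tried on simulated counts with known changes, where 2 of 3478 unchanged exons were called. Same-numbered libraries did not deviate together (correlations -0.0217 to 0.00147), so no pairing was used.

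Alternatives were DESeq2 1.42.0, limma 3.58.1 with a pseudocount of 0.5, other minimum counts, other sets of transcripts, robust dispersions, a replicate block and leaving out each library. The named microexons were all those called, the 6 with the most spanning counts among those with both forms, the 5 uncalled with the largest difference and groups apart, those at the threshold and those of the neural list, with GLE1 and the microexons with only 1 form added later. The named host genes were all those called. Microexons, lists and tests were chosen with earlier results of these data known. A count of 0 was given an upper limit of 3 counts, for counting error alone.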

Additional observations from a re-analysis of the deposited data

Results flagged for a closer look

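Among the named microexons, 58 groups of 4 libraries were examined, and in 5 of them a single library stood far from the others, where chance gives about 1 in 20. In EPRS1, the library at 26.2% inclusion was shPTBP1 replicate 3, the others being 21.9% to 22.2%, and the library at 19.7% was shSCR replicate 3, the others being 21.7% to 22%. In ABI1, shSCR replicate 4 was at 45.5% and the others were at 71% to 75%. In PTPRF, shSCR replicate 4 was at 11.8% and the others were at 20% to 21.4%. In SYNJ1, shPTBP1 replicate 3 was at 100% on 2 spanning counts, and the others were at 0% to 14.3%. None of these microexons was called.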

How the results depend on the processing

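Of the microexons tested, 4 were called, and 3 to 5 were called under every alternative. The 22-base RPS24, PDLIM7 and PICALM exons kept their direction and call wherever they could be tested, with log2 odds changes of 1.52 to 1.59, 1.93 to 2.28 and -2.31 to -2.01, while counting only transcripts alike but for the exon (clean pairs) left PDLIM7 and PICALM without a test. The 25-base RPS24 exon lost its call with limma (1.34, adjusted p = 0.135) and, with a difference of 0.527 percentage points, under a minimum change of 10 percentage points. GLE1 gained it with a minimum of 20 or of 1 count of the rarer form, clean pairs, robust dispersions, and without shSCR replicate 3 (3.26). Leaving out 1 library at a time gave 4 to 5 called microexons.

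Of all internal exons, 63 were called, but 38 with a minimum change of 10 percentage points, 26 with limma, 104 with a minimum of 1 count of the rarer form and 44 to 59 with 1 library left out. The host genes called numbered 21, 13 with DESeq2 and 8 to 14 with 1 library left out. The replicate block, for numbers that did not pair the libraries, gave 4 microexons, 60 internal exons and 14 host genes, and a PTBP1 log2 fold change of -2.27. PTBP1 remained called throughout.

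The log2 odds changes that turned direction were all of uncalled microexons. With 1 library left out, ACTR2 ranged from -0.31 to 0.01 (turning without shSCR replicate 4), ABI1 from -0.28 (without shSCR replicate 4; -0.12 without shPTBP1 replicate 3) to 0.25, AP2M1 from -0.15 (without shPTBP1 replicate 1) to 0.39, and CPEB4 from -0.22 to 0.26 (turning without shPTBP1 replicate 1 or 4 or shSCR replicate 3). MEF2A ranged from -1.01 to 1.35 and PTPRF from -1.30 to 0.17, both turning without shPTBP1 replicate 1. The 27-base CLASP1 exon turned on clean pairs (-0.71). The cause was not tested. The spanning counts of these exons ran from 85 for PTPRF to 7350 for ACTR2.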
